A study of Mus musculus with 8 samples.

Results

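The genes of sterol and fatty acid synthesis were followed in macrophages grown from mouse bone marrow. They are 34 named genes of the enzymes and regulators of both pathways, taken from the 23366 genes of the deposited table, and all 34 have a row there. The values behind them are TMM-scaled CPM, that is, reads per gene scaled to a common library size (CPM) after trimmed-mean correction between libraries. The scale does not correct for gene length, so levels are compared between libraries and not between genes. Of the 34 members, 33 passed the filter on low values and were tested. Hmgcs1, the cytosolic HMG-CoA synthase of the mevalonate pathway, was listed at 0 in all 8 libraries and could not be. Idi1, a later gene of that pathway, had 572 to 2123 reads per library. Whether the 0 of Hmgcs1 reflects the cells or the counting was not tested, so it is not read as absence of the transcript.

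The samples were RNA of bone marrow-derived macrophages on the C57BL/6 background at passage 1, all kept without serum for 24 h. The groups were Lsd1SA/SA knock-in cells with lipopolysaccharide (LPS), untreated Lsd1SA/SA cells, wild-type cells with LPS and untreated wild-type cells, with 2 libraries each. LPS, a Gram-negative cell wall component that sets off inflammatory signalling, was given for 2 h, at 1 mg/ml per the labels. The SA allele is known as a phosphorylation-defective form of the histone demethylase LSD1, and the title of the series places LSD1 between protein kinase C alpha and NF-kB. Nothing in the labels says that libraries of a group were separate cultures or animals. The p-values therefore rest on the spread between libraries alone, which may be technical.

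Cells make cholesterol from acetyl-CoA through mevalonate, isoprenoid units, squalene and lanosterol, and make fatty acids from acetyl-CoA through malonyl-CoA. The transcription factors SREBP-2 (Srebf2) and SREBP-1 (Srebf1) raise the genes of both routes. SCAP escorts them out of the endoplasmic reticulum when sterol is scarce, and the INSIG proteins hold them back when it is plentiful. In macrophages these routes supply membrane lipid, and sterol intermediates and unsaturated fatty acids are known to influence inflammatory signalling.

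Libraries held 40379258 to 55595160 reads. The 12 macrophage markers together stood at 26045 to 27387 in the libraries labelled Lsd1SA/SA with LPS, at 21307 to 22062 in untreated Lsd1SA/SA cells, at 24600.1 to 24823 in wild type with LPS and at 21369 to 21509 in untreated wild type. Abundant genes carry that sum, and with LPS 4 of the 12 rose and 6 fell in Lsd1SA/SA cells, while 5 rose and 2 fell in wild type. Of all tested genes, 28.5% rose and 28.3% fell in the first, and 26.8% rose and 30.7% fell in the second. Kdm1a, the gene for LSD1, averaged 39.9 in the libraries labelled Lsd1SA/SA with LPS, 33.1 in untreated Lsd1SA/SA cells, 46.5 in wild type with LPS and 32.5 in untreated wild type, which does not check a substitution. The libraries labelled Lsd1SA/SA with LPS stood apart from the other 6. Xist was at 0.366 and 0.212 in them and at 315 or above in the other 6, and the Y-linked gene Eif2s3y was at 35.0 and 33.9 in them and at 0 in the other 6. They therefore came from male cells and the rest from female cells, and the effect of LPS or genotype in them cannot be told apart from that of sex or of another culture. Tnf, an early LPS target, averaged 48.6 in them against 26.6 in untreated Lsd1SA/SA cells, and 3977 in wild type with LPS against 27.1 in untreated wild type. The other 3 LPS targets checked were Il1b, at 1.48 in them against 1.47 in untreated Lsd1SA/SA cells, Cxcl2, at 2.46 against 1.99, and Nfkbia, at 67.5 against 60.1. The median log2 change of the 4 was 0.19 in Lsd1SA/SA cells and 8.19 in wild type. All values for Lsd1SA/SA cells with LPS below are from these libraries.

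The promoters of 5 members are shown first because these genes moved in opposite directions in the 2 LPS comparisons, higher in wild type and lower in the libraries labelled Lsd1SA/SA with LPS. The 140 bases before the start of each gene are from RefSeq on GRCm38.p6. They lie at chr13:8885466-8885605 (plus strand) for Idi1, chr5:4104698-4104837 (minus strand) for Cyp51, chr1:169969206-169969345 (minus strand) for Hsd17b7, chr15:82147129-82147268 (plus strand) for Srebf2 and chr5:28071272-28071411 (plus strand) for Insig1. Capitals mark the NF-Y box CCAAT, the Sp1 box GGGCGG and the string TCACCTCA, each on either strand. NF-Y and Sp1 are known to act together with SREBPs at sterol-regulated promoters. The stretch shown for Insig1 holds no NF-Y box.
Idi1: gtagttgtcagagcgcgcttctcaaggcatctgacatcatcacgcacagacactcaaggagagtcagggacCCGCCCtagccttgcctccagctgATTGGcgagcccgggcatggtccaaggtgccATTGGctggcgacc
Cyp51: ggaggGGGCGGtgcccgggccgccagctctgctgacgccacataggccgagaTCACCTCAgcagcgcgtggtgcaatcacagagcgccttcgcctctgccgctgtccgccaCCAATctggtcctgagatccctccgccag
Hsd17b7: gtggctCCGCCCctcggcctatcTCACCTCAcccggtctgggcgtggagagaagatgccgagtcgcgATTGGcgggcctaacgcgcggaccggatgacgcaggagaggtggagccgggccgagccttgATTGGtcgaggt
Srebf2: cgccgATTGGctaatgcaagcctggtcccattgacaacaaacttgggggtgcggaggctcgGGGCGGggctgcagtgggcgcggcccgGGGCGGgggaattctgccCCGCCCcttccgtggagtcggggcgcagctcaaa
Insig1: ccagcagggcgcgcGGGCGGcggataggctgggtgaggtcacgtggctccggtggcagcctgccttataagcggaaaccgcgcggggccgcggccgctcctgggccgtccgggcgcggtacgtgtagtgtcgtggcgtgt
Srebf1, with several promoters in the table, and Stard4 moved the same way as these 5.

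Promoters were at hand for 27 of the 34 members, 36 promoters in all. Fdps, Fdft1, Sqle, Stard4, Scd1, Scd2 and Fads1 were not in the table. In the 250 bases before the start, CCAAT stood in 22 of the 36 (61.1%) and in 33.8% of all 32851 promoters of the table. GGGCGG stood in 25 of the 36 (69.4%) and in 32.7% of all. Both boxes also stood before Mvk, Tm7sf2, Nsdhl, Ebp and Acss2, which passed in neither LPS comparison, so they do not mark the members that moved. The core of the sterol regulatory element, TCACNCCAC, stood in 1 of the 36, that of Hmgcs1, and in 1.05% of all. TCACCTCA, a related string searched after the sequences were read, stood in the promoters of Cyp51 and Hsd17b7 and in 0.947% of all. The members were named by pathway, so these shares describe them, and a match is not a shown binding site. The 32851 promoters were not limited to genes tested here, and shares over tested genes alone were not computed.

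In the libraries labelled Lsd1SA/SA with LPS, the genes of both pathways were lower than in untreated Lsd1SA/SA cells. Of 33 tested members, 24 fell (72.7%), 0 rose and 9 did not pass. Of all 11919 tested genes 56.7% were called, 28.3% as lower and 28.5% as higher. The test was limma on log2(value + 1) with Benjamini-Hochberg adjustment over all tested genes, and the members' median log2 change was -0.59, against 0.016 over all tested genes. For the 0 that rose, 1 member was higher at an unadjusted p under 0.05, and edgeR and DESeq2 on the recovered reads also called 0. Fewer cells of a kind and less RNA per cell cannot be told apart in such bulk samples.

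**Figure D1:**
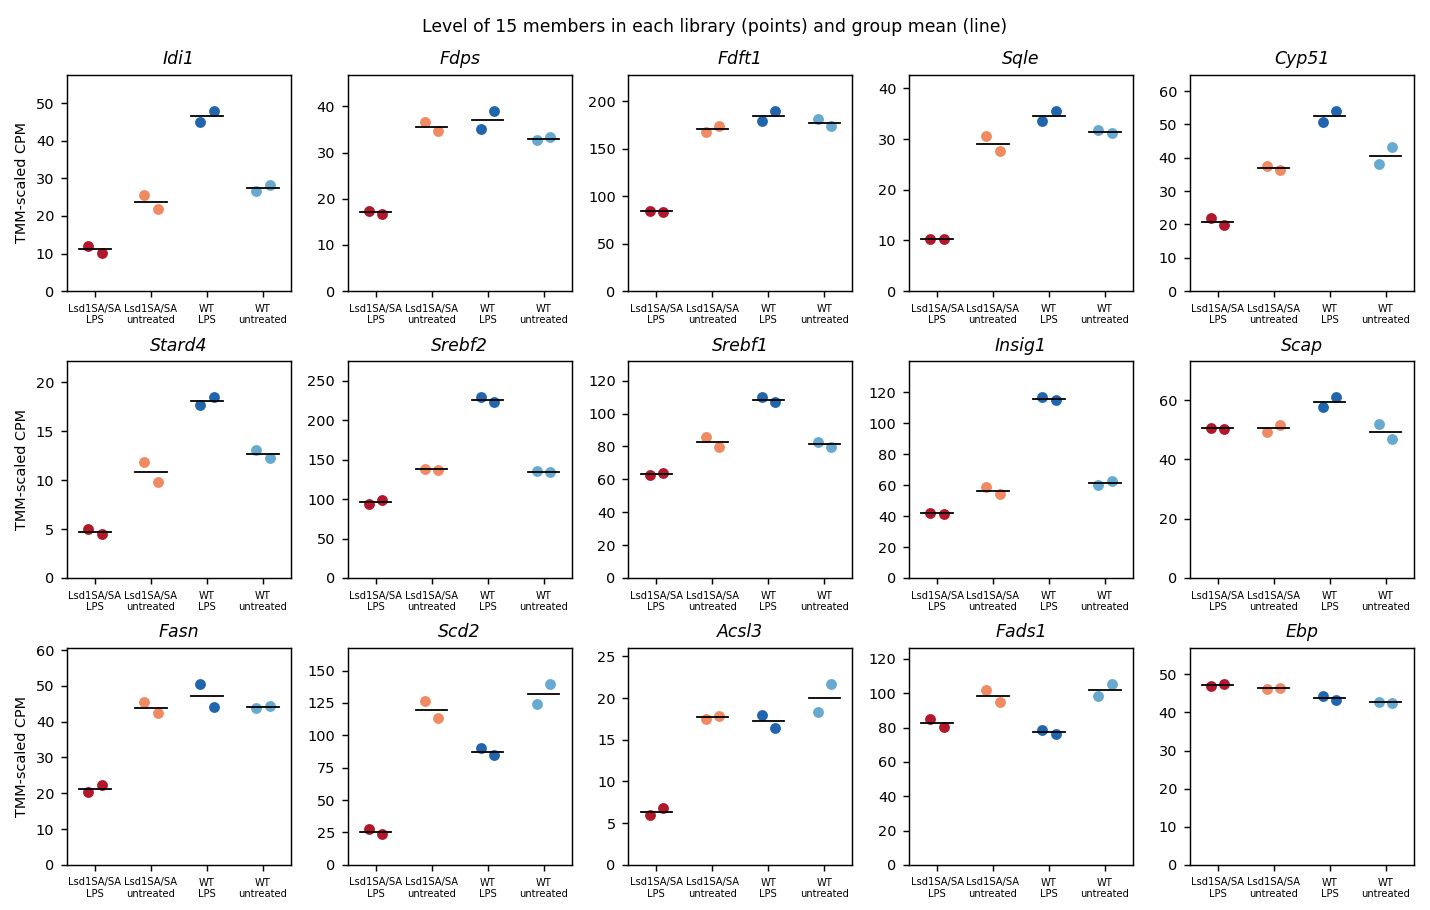
Level of 15 members in TMM-scaled CPM (vertical axis, starting at 0) in each of the 8 libraries (points), by group on the horizontal axis, with the group mean as a line. Most panels are lowest in the libraries labelled Lsd1SA/SA with LPS, as for Sqle at 10.3 and 10.3, while Srebf2, Insig1 and Idi1 are highest in wild type with LPS and Ebp is nearly level.

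The early steps make isoprenoid units. Idi1, whose enzyme interconverts the 5-carbon isoprenoids, was at 12.1 and 10.1 in the libraries labelled Lsd1SA/SA with LPS, against 25.5 and 21.9 in untreated Lsd1SA/SA cells. It was at 45.0 and 48.0 in wild type with LPS, against 26.6 and 28.3 in untreated wild type. The groups did not overlap in either comparison, and the gene fell in the first (log2 change -1.03 ± 0.087 SE, limma adjusted p = 4.18e-10) and rose in the second (0.74 ± 0.087, limma adjusted p = 8.48e-08). Fdps, which makes farnesyl diphosphate, was at 17.4 and 16.7 in the libraries labelled Lsd1SA/SA with LPS, against 36.5 and 34.6 in untreated Lsd1SA/SA cells (log2 change -1.02, limma adjusted p = 1.29e-11). In wild type it was at 35.1 and 39.1 with LPS, against 32.8 and 33.3 untreated, and did not pass by limma (0.16, adjusted p = 0.0584). It passed there by edgeR, by DESeq2 and with median-of-ratios scaling.

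The other mevalonate members were split. Acat2, a thiolase that makes acetoacetyl-CoA (log2 change -0.59), and Mvd, which decarboxylates mevalonate diphosphate (-0.61), fell in the libraries labelled Lsd1SA/SA with LPS, at limma adjusted p of 2.73e-05 and 4.19e-06. The mevalonate kinases did not pass there. Mvk was at 14.6 and 16.8 in the libraries labelled Lsd1SA/SA with LPS, against 15.5 and 16.3 in untreated Lsd1SA/SA cells (log2 change -0.02, 95% interval -0.22 to 0.19), and these overlapped. Pmvk was at 15.0 and 14.8, against 17.2 and 16.0 (-0.15, interval -0.33 to 0.03). In wild type, Idi1 was the mevalonate member that passed, of 6 tested, beside 57.6% of all tested genes.

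Squalene and its first sterols are made by Fdft1, Sqle, Lss and Cyp51 in turn. Sqle, the squalene epoxidase and a rate-limiting enzyme of the route, was at 10.3 and 10.3 in the libraries labelled Lsd1SA/SA with LPS, against 30.6 and 27.7 in untreated Lsd1SA/SA cells. The groups were far apart (log2 change -1.41 ± 0.074 SE, limma adjusted p = 6.10e-14). In wild type, Sqle was at 33.6 and 35.6 with LPS, against 31.7 and 31.1 untreated, and did not pass (0.14, limma adjusted p = 0.126). Fdft1, the squalene synthase, was at 84.6 and 83.4 in the libraries labelled Lsd1SA/SA with LPS, against 168 and 174 in untreated Lsd1SA/SA cells (-1.02, limma adjusted p = 1.12e-14). In wild type, Fdft1 was at 179 and 190.2 with LPS, against 181 and 174 untreated, and these groups overlapped (0.059, limma adjusted p = 0.322). After quantile normalization it was called lower there (-0.32). Cyp51, the lanosterol demethylase, fell in the libraries labelled Lsd1SA/SA with LPS, to 21.8 and 19.9, against 37.5 and 36.5 in untreated Lsd1SA/SA cells (-0.80, limma adjusted p = 1.09e-09). In wild type it rose to 50.7 and 54.1 with LPS, against 38.2 and 43.1 untreated (0.36, limma adjusted p = 1.20e-04).

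Dhcr7, the last reductase of the route, fell in each genotype. It was at 24.6 and 24.3 in the libraries labelled Lsd1SA/SA with LPS, against 33.5 and 32.1 in untreated Lsd1SA/SA cells (log2 change -0.41, limma adjusted p = 2.04e-05). In wild type it was at 25.7 and 25.2 with LPS, against 33.0 and 31.4 untreated (-0.33, limma adjusted p = 2.36e-04). The LPS groups of the genotypes were thus close (-0.05, 95% interval -0.19 to 0.09). Lss, which closes the sterol rings, fell to 9.70 and 9.30 in the libraries labelled Lsd1SA/SA with LPS, against 15.9 and 14.1 in untreated Lsd1SA/SA cells (-0.60, limma adjusted p = 5.16e-06). It fell narrowly in wild type (-0.25, limma adjusted p = 0.0228), a call lost in 6 of 19 alternatives, where adjusted p ranged from 0.0198 to 0.190. Among these were the fits lacking replicate 1 of the wild-type LPS group and the fits lacking an untreated wild-type library. Hsd17b7, a ketosteroid reductase, fell to 4.57 and 4.76 in the libraries labelled Lsd1SA/SA with LPS, against 6.77 and 6.59 in untreated Lsd1SA/SA cells (-0.44, limma adjusted p = 0.00143). It rose to 10.3 and 9.72 in wild type with LPS, against 7.13 and 8.59 untreated (0.32, limma adjusted p = 0.0143), a call lost with no filter and without replicate 1 of either wild-type group, with adjusted p from 7.97e-04 to 0.190 over the alternatives.

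Tm7sf2, Nsdhl and Ebp, which act between lanosterol and the last steps, did not pass in either LPS comparison. Ebp and Nsdhl are the members on the X chromosome. Ebp was at 46.8 and 47.4 in the libraries labelled Lsd1SA/SA with LPS, which came from male cells, against 46.2 and 46.5 in untreated Lsd1SA/SA cells (log2 change 0.022, 95% interval -0.10 to 0.14). Nsdhl was at 20.6 and 19.8, against 18.4 and 16.8 (0.19, limma adjusted p = 0.0762). Tm7sf2 was at 9.41 and 9.10, against 9.09 and 8.73 (0.049, interval -0.15 to 0.25).

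Of the 6 genes of regulation and sterol transport, 4 fell in the libraries labelled Lsd1SA/SA with LPS and 5 rose in wild type with LPS. Of all tested genes, 28.3% fell in the first comparison and 26.8% rose in the second. Srebf2, which encodes the factor that drives sterol synthesis, was at 94.1 and 98.9 in the libraries labelled Lsd1SA/SA with LPS, against 138 and 137 in untreated Lsd1SA/SA cells. It was at 229 and 223 in wild type with LPS, against 136 and 134 in untreated wild type. It fell in the first comparison (log2 change -0.51 ± 0.048 SE, limma adjusted p = 2.76e-09) and rose in the second (0.74 ± 0.048, limma adjusted p = 1.80e-12). Over the alternatives that rise ranged from 0.33 to 0.78. Insig1, both a target and a restraint of SREBP, was at 42.2 and 41.3 in the libraries labelled Lsd1SA/SA with LPS, against 58.7 and 54.2 in untreated Lsd1SA/SA cells (-0.43, limma adjusted p = 8.69e-07). It was at 117 and 115 in wild type with LPS, against 59.9 and 62.4 in untreated wild type (0.91, limma adjusted p = 8.01e-13). Both genes thus sat lowest in the libraries labelled Lsd1SA/SA with LPS and highest in wild type with LPS.

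Srebf1, which encodes the factor that drives fatty acid synthesis, followed the same order. It was at 62.4 and 63.6 in the libraries labelled Lsd1SA/SA with LPS, against 85.5 and 79.9 in untreated Lsd1SA/SA cells (log2 change -0.39, limma adjusted p = 1.55e-06). It was at 109.8 and 107 in wild type with LPS, against 82.7 and 79.9 in untreated wild type (0.41, limma adjusted p = 4.40e-07). Over the alternatives that rise ranged from 0.15 to 0.45. Stard4, a carrier of cholesterol between membranes, was at 4.98 and 4.52, against 11.8 and 9.80, in Lsd1SA/SA cells with LPS and untreated (-1.04, limma adjusted p = 5.72e-09). It was at 17.7 and 18.4, against 13.1 and 12.2, in wild type with LPS and untreated (0.48, limma adjusted p = 2.69e-04). Scap, the escort, was at 50.8 and 50.4 in the libraries labelled Lsd1SA/SA with LPS, against 49.1 and 51.8 in untreated Lsd1SA/SA cells, and these overlapped. It rose in wild type, to 57.6 and 60.9 with LPS, against 51.9 and 46.9 untreated (0.26, limma adjusted p = 8.95e-04), but not after quantile normalization (0.13, limma adjusted p = 0.0870, in a range over the alternatives of 9.97e-05 to 0.0870). Insig2 did not pass in either, at 21.0 and 20.7 in the libraries labelled Lsd1SA/SA with LPS, against 22.7 and 23.6 in untreated Lsd1SA/SA cells.

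**Figure D2:**
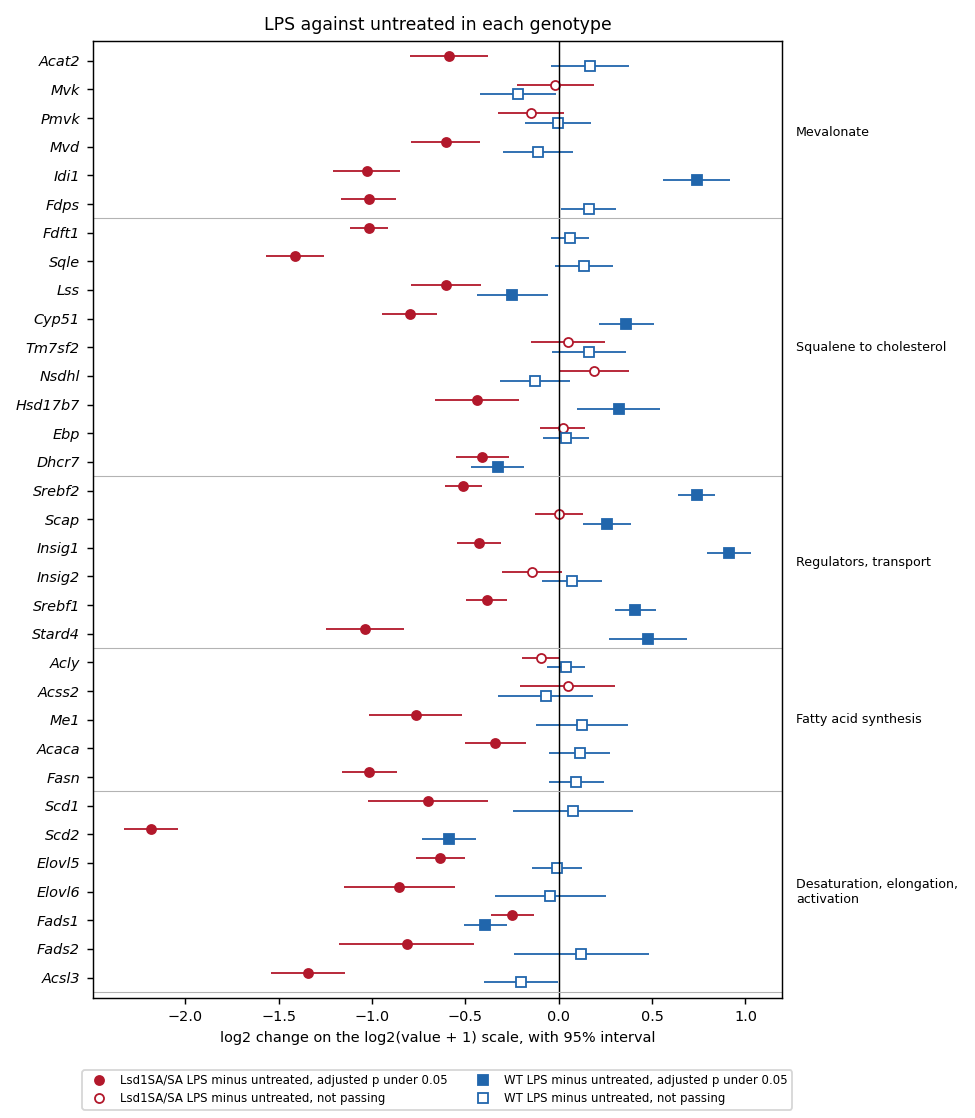
Log2 change with LPS on the log2(value + 1) scale (horizontal axis) of the 33 tested members (vertical axis, by role), in Lsd1SA/SA cells (circles) and in wild type (squares), with 95% intervals from limma. Filled symbols passed an adjusted p under 0.05, as 24 circles left of 0 and 0 right of it, and 8 squares right of 0 and 4 left. The libraries labelled Lsd1SA/SA with LPS came from male cells and the others from female cells.

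Of the 5 enzymes that supply and build palmitate, 3 fell in the libraries labelled Lsd1SA/SA with LPS and 0 passed in wild type. Of all tested genes, 28.3% fell in the first comparison and 57.6% passed in the second. Fasn, the fatty acid synthase, was at 20.3 and 22.2 in the libraries labelled Lsd1SA/SA with LPS, against 45.6 and 42.3 in untreated Lsd1SA/SA cells (log2 change -1.01 ± 0.072 SE, limma adjusted p = 1.52e-11). It was at 50.4 and 44.1 in wild type with LPS, against 43.8 and 44.5 in untreated wild type, and these overlapped (0.093, limma adjusted p = 0.276). Me1, the malic enzyme that supplies NADPH (-0.77, limma adjusted p = 8.26e-06), and Acaca, the acetyl-CoA carboxylase (-0.34, limma adjusted p = 8.00e-04), also fell. Acly, which makes cytosolic acetyl-CoA from citrate, was at 143 and 146, against 159 and 151 (-0.096, limma adjusted p = 0.0948), and Acss2, which makes it from acetate, at 3.82 and 4.15, against 3.49 and 4.17, in the same groups. In wild type, Acly did not pass (0.038) but was called lower after quantile normalization (-0.29).

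All 7 genes of desaturation, elongation and activation fell in the libraries labelled Lsd1SA/SA with LPS, as did 28.3% of all tested genes. Scd2, a stearoyl-CoA desaturase, moved farthest of all members. It was at 27.7 and 23.6 in the libraries labelled Lsd1SA/SA with LPS, against 126 and 113 in untreated Lsd1SA/SA cells (log2 change -2.18 ± 0.070 SE, limma adjusted p = 4.32e-18). It was at 90.1 and 84.9 in wild type with LPS, against 125 and 139 in untreated wild type (-0.59, limma adjusted p = 1.12e-07). The level with LPS was 0.214 of that without in Lsd1SA/SA cells and 0.663 of it in wild type. Fads1, the delta-5 desaturase, fell in each genotype as well, to 85.2 and 80.0 in the libraries labelled Lsd1SA/SA with LPS, against 102 and 94.9 in untreated Lsd1SA/SA cells (-0.25, limma adjusted p = 5.65e-04). In wild type it fell to 78.5 and 76.0 with LPS, against 98.5 and 105 untreated (-0.39, limma adjusted p = 1.60e-06).

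Acsl3, an acyl-CoA synthetase linked to lipid droplets, was at 5.96 and 6.81 in the libraries labelled Lsd1SA/SA with LPS, against 17.5 and 17.9 in untreated Lsd1SA/SA cells (log2 change -1.34, limma adjusted p = 1.67e-11). In wild type it was at 18.0 and 16.4 with LPS, against 18.4 and 21.6 untreated, and did not pass (-0.20, limma adjusted p = 0.0745). Elovl5, an elongase of polyunsaturated fatty acids, fell in the libraries labelled Lsd1SA/SA with LPS (-0.63, limma adjusted p = 1.14e-08), and was near level in wild type (-0.0088). Scd1, Elovl6 and Fads2 were read at low depth. Fads2, the delta-6 desaturase, had 26 and 25 reads in the libraries labelled Lsd1SA/SA with LPS, against 90 and 64 in untreated Lsd1SA/SA cells. Scd1 had 59 and 47 reads, against 113 and 101, and Elovl6, an elongase of palmitate, 54 and 75, against 127 and 160, in the same groups. All 3 fell there (-0.81 for Fads2, -0.70 for Scd1 and -0.85 for Elovl6, limma adjusted p of 3.66e-04, 5.17e-04 and 2.23e-05), on a scale that understates the change of low genes.

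In wild type, LPS thus moved the members in both directions. Of 33 tested, 8 rose (24.2%) and 4 fell (12.1%) by limma. Of all tested genes 57.6% were called, 26.8% as higher and 30.7% as lower. A smaller share of the members than of genes at large was thus called, and this difference was not tested. The share of all calls that were higher was 46.6% with the deposited scaling and 35.4% after quantile normalization. The members' median log2 change was 0.077, against -0.032 over all tested genes. Of the 8 that rose, 5 were among the 6 genes of regulation and sterol transport (Srebf2, Scap, Insig1, Srebf1 and Stard4), and the others were Idi1, Cyp51 and Hsd17b7. The 4 that fell were Lss, Dhcr7, Scd2 and Fads1. Fitted without the libraries labelled Lsd1SA/SA with LPS, the counts were again 8 and 4.

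Set side by side, 7 members fell in the libraries labelled Lsd1SA/SA with LPS and rose in wild type with LPS (Idi1, Cyp51, Hsd17b7, Srebf2, Insig1, Srebf1 and Stard4). Of all tested genes, 28.3% fell in the first comparison and 26.8% rose in the second. The share of all genes that did both was not counted, so this pattern is not shown to be particular to the members. A further 4 fell in both (Lss, Dhcr7, Scd2 and Fads1) and 13 fell in the first and did not pass in the second. Scap rose in wild type and did not pass in the libraries labelled Lsd1SA/SA with LPS, and 8 members passed in neither. The LPS effect in Lsd1SA/SA cells minus that in wild type was tested itself. By limma it was called below 0 for 23 of 33 members (69.7%) and above 0 for 1, while 63.7% of all tested genes were called, 31.8% in each direction.

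Between the genotypes with LPS, 24 of 33 members were lower in the libraries labelled Lsd1SA/SA (72.7%) and 1 was higher, while 75.4% of all tested genes were called, 36.8% as lower and 38.5% as higher. On the log2(value + 1) scale the largest differences were those of Idi1 (log2 difference -1.98, limma adjusted p = 5.37e-16), Scd2 (-1.74, limma adjusted p = 9.59e-17), Stard4 (-1.73, limma adjusted p = 1.60e-13) and Sqle (-1.66, limma adjusted p = 8.63e-16). Idi1 averaged 11.1 ± 1.44 in the libraries labelled Lsd1SA/SA with LPS and 46.5 ± 2.14 in wild type with LPS (SD, n = 2 each). As a plain ratio of means, the low-depth Fads2 (0.249) came next after Idi1 (0.239). The members' median was -0.77, against 0.023 over all tested genes. Acly was called lower (-0.12, limma adjusted p = 0.0287), but higher after quantile normalization (0.12, limma adjusted p = 0.0414). The call of Acly as lower was lost when either library of the Lsd1SA/SA LPS group, or replicate 1 of the wild-type LPS group, was left out. Its log2 difference ranged from -0.16 to 0.12 over the alternatives. The 1 member called higher was the X-linked Nsdhl (0.20, limma adjusted p = 0.0453), at 20.6 and 19.8 in the libraries labelled Lsd1SA/SA with LPS and 17.2 and 17.7 in wild type with LPS. Its call was lost in 10 of 18 alternatives, among them leaving out any of these 4 libraries, edgeR, DESeq2 and the replicate block (range of adjusted p 0.0216 to 0.202).

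Between the untreated genotypes, no member was called. By limma, 0 of 33 passed, as did 0 by edgeR and 0 by DESeq2, and 2 were lower at an unadjusted p under 0.05. Over all tested genes 0.00839% were called. The 95% intervals of the log2 difference lay within 0.5 of 0 for 32 of the 33 members. They reached down to -0.56 for Elovl6, at 2.92 and 2.95 in Lsd1SA/SA cells and 3.81 and 3.63 in wild type, and up to 0.35 for Pmvk, at 17.2 and 16.0 in Lsd1SA/SA cells and 14.8 and 14.4 in wild type.

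**Figure D3:**
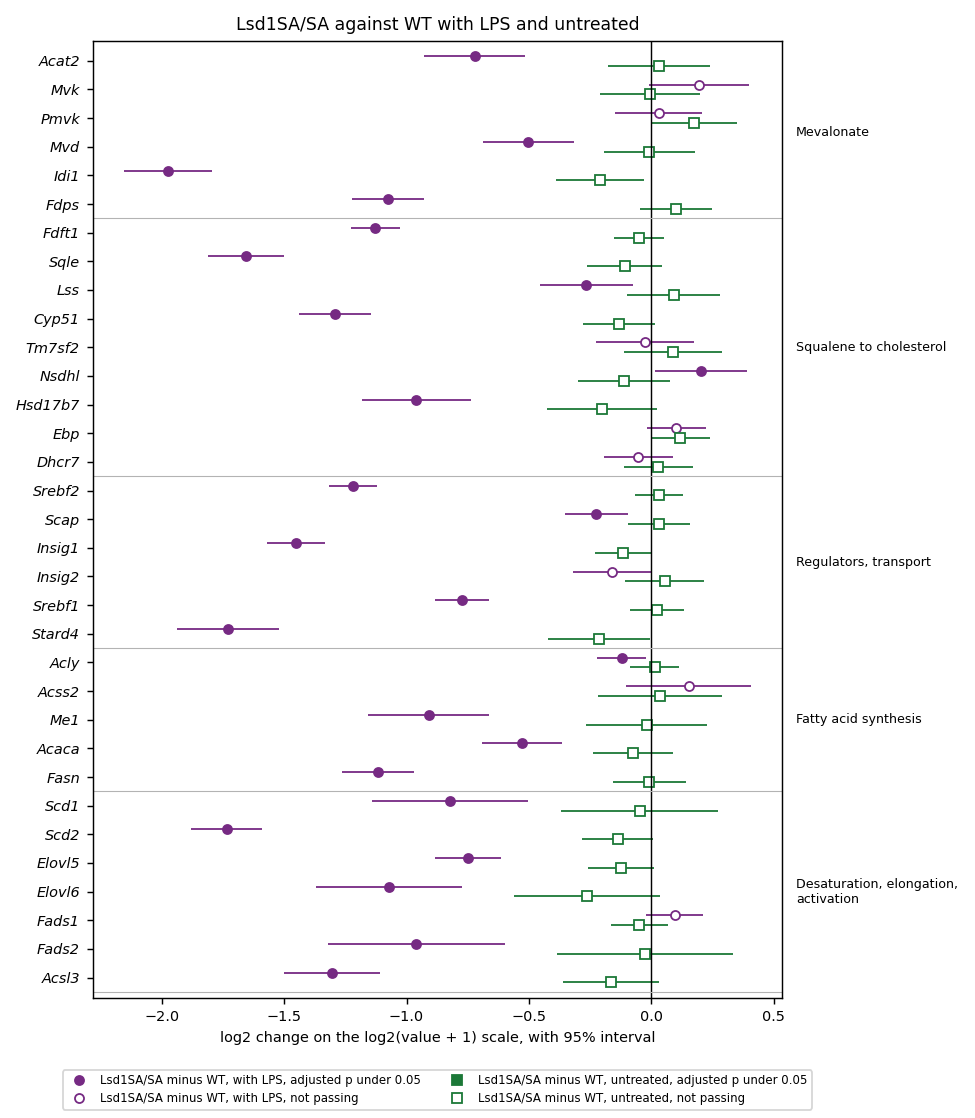
Log2 difference between the genotypes on the log2(value + 1) scale (horizontal axis) of the 33 tested members (vertical axis, by role), with LPS (circles) and untreated (squares), with 95% intervals from limma. Untreated squares lie near 0 and none is filled, while 24 filled circles lie left of 0 and 1 right of it. The libraries labelled Lsd1SA/SA with LPS came from male cells and the others from female cells.

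Other genes of these pathways were called in both directions. Of 28 listed, 25 were tested, and in the libraries labelled Lsd1SA/SA with LPS 13 fell and 10 rose against untreated Lsd1SA/SA cells, beside 28.3% of all tested genes lower and 28.5% higher. Whether these shares differ from those of the members was not tested. Of the genes reported here, Sc4mol, the sterol methyl oxidase, fell (log2 change -0.59), while Acsl1, an acyl-CoA synthetase (1.10), and Acacb, the mitochondrial acetyl-CoA carboxylase (0.76), rose. In wild type, 8 rose and 8 fell, beside 26.8% of all tested genes higher and 30.7% lower, with Acsl1 at 2.26, Fads3 at -0.61, Acacb at -0.60 and Oxsm, of mitochondrial fatty acid synthesis, at -0.59.

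Genes of fatty acid breakdown and storage were read beside the same shares of all tested genes, and were not tested against the members. Of 20 genes of fatty acid oxidation, 9 fell and 4 rose in the libraries labelled Lsd1SA/SA with LPS, with the subunits of the mitochondrial trifunctional protein, Hadhb (log2 change -0.94) and Hadha (-0.70), lowest. In wild type 4 fell and 2 rose, led by Cpt2, a carnitine palmitoyltransferase (-0.66). Of 15 genes of lipid droplets and esterification, 4 fell (26.7%, near the share of all tested genes) and 3 rose in the libraries labelled Lsd1SA/SA with LPS. Hilpda, an inhibitor of lipolysis, rose most of them (1.32). Plin2, a lipid droplet coat protein, averaged 2210.5 there and 1340.3 in untreated Lsd1SA/SA cells (0.72, limma adjusted p = 1.08e-11), while Mgll, a monoacylglycerol lipase (-1.34), and Lpin1, a phosphatidate phosphatase (-1.24), fell. In wild type 8 fell and 3 rose, with Hilpda at 2.71, Lpin2, another phosphatidate phosphatase, at 1.71, Dgat2, which makes triglyceride, at 1.17, and Gpam, which starts glycerolipid synthesis, at -1.09.

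**Figure D4:**
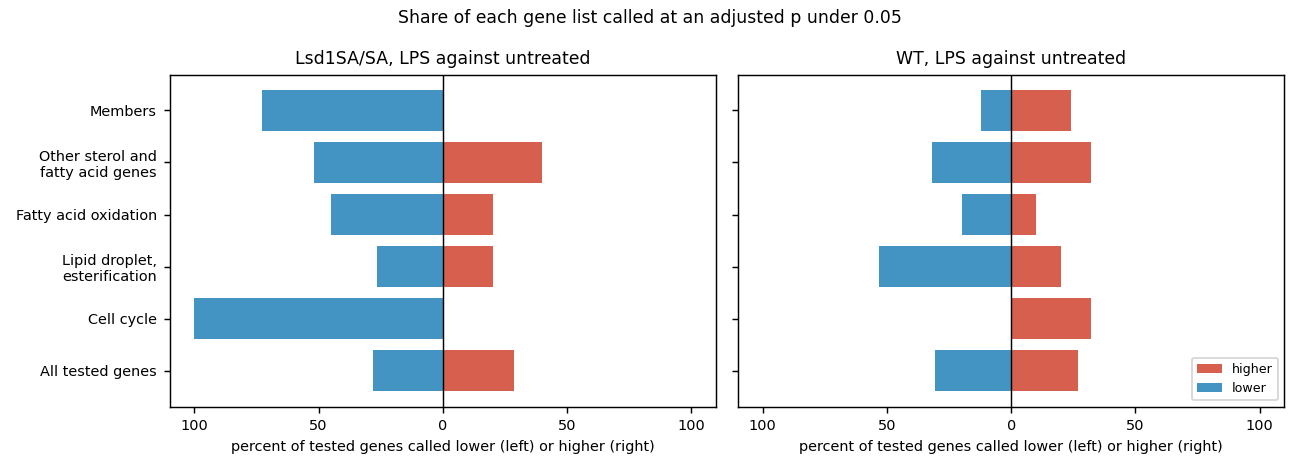
Percent of tested genes called lower (left of 0) or higher (right of 0) with LPS (horizontal axis) for 5 gene lists and all tested genes (vertical axis), in Lsd1SA/SA cells (left panel) and wild type (right panel). Among members, 72.7% are lower and 0% higher in Lsd1SA/SA cells, and 12.1% are lower and 24.2% higher in wild type. The libraries labelled Lsd1SA/SA with LPS came from male cells and the others from female cells.

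Genes of dividing cells and markers of other cell types were read beside the members. All 25 cell cycle genes fell in the libraries labelled Lsd1SA/SA with LPS, beside 28.3% of all tested genes lower and 28.5% higher. Their summed level was 571 to 586 there, against 1206 to 1226 in untreated Lsd1SA/SA cells. In wild type 8 rose by limma (32%, near the 26.8% of all tested genes) and 0 fell, beside 30.7% of all tested genes lower. The sum was 1546 to 1585 with LPS, against 1228 to 1246 untreated. The marker counts that follow stand beside the same shares of all tested genes. Stromal markers rose in 8 of 8 tested in the libraries labelled Lsd1SA/SA with LPS. Their sum was 72.9 to 73.1 there, against 22.7 to 23.3 in untreated Lsd1SA/SA cells. In wild type 1 of 8 rose and 1 fell, with sums of 18.8 to 20.2 with LPS, against 18.0 to 20.1 untreated. Neutrophil markers rose in 6 of 9 tested in the libraries labelled Lsd1SA/SA with LPS, where they summed to 454 to 462, against 356 to 363 in untreated Lsd1SA/SA cells. In wild type 5 of 9 rose, with sums of 752 to 772 with LPS, against 356 to 363 untreated. Of 8 B and T cell markers, 2 were tested, and 1 fell in the libraries labelled Lsd1SA/SA with LPS. The 8 summed to 6.62 to 7.37 there, against 11.9 to 12.5 in untreated Lsd1SA/SA cells. In wild type 0 of 2 passed, with sums of 9.87 to 11.5 with LPS, against 10.4 to 11.8 untreated. The part of dividing, stromal, neutrophil, B and T cells and of sex in the lower member levels was not tested. Adipocyte markers were at or near 0, with a summed level of at most 0.0743 in any library for 7 genes, 3 of them (Plin1, Lep and Cidec) at 0 throughout.

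Some members share sequence with other genes, and counting by strand is not stated. Of the exon bases of Fdft1, 18.3% lie opposite exons of Ctsb, one of the most abundant transcripts, in the GENCODE annotation. Ctsb itself stood at 24878 and 23535 in the libraries labelled Lsd1SA/SA with LPS, against 21366 and 21141 in untreated Lsd1SA/SA cells, and the part of its reads in the Fdft1 values was not tested. Acat2 shares 39.1% of its 50-base stretches with Acat3, which fell less (log2 change -0.20, limma adjusted p = 0.0213). Acaca (30.4%), Me1 (22.9%) and Idi1 (17.7%) share stretches with predicted copies, so their reads may be split. Fdps shares 26.2%, mostly with Gm43738 (23.4%), whose exons overlap 26.7% of its exon bases on the same strand. Its reads may be split as well. The other members shared under 10% of theirs.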

How the data were processed

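RNA-seq values for 8 libraries of bone marrow-derived macrophages were used. The deposited table holds a normalized signal: the steps between its values have the form of TMM-scaled CPM, which the authors computed per gene. Each value above 0 was a whole number of reads to within 0.001. The tools named in the submitters' processing notes are TopHat2 2.0.9, bedtools and edgeR, and the build is mm9. How reads were counted, on which strand and annotation, is not given in the sources used here. Between 66.0 and 68.6% of values of 1 to 50 reads were even in each library, so mates may each have been counted.

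Because the values are normalized, limma 3.58.1 (R 4.3.3) was run on log2(value + 1), with eBayes, a variance trend and 4 group means over all 8 libraries (4 residual and 19.1 prior degrees of freedom). The filter was a value of at least 1 in at least 2 libraries (11919 genes). A call is an adjusted p under 0.05 (2-sided, Benjamini-Hochberg over all genes of a comparison), for 5 comparisons. edgeR 4.0.16 and DESeq2 1.42.0 on the recovered reads, other pseudocounts, filters and scalings, a robust trend, a replicate block and leaving out libraries were alternatives. Scripts were tested on simulated data. The members and lists were chosen with earlier results of these data known. All 34 members are named, and of other lists at most the 4 largest called changes. One gene that this rule names is not reported here. Promoters were to be printed for members called with LPS that hold TCACNCCAC. Hmgcs1, which alone holds it, is listed at 0, so those printed were chosen after values were seen. GENCODE vM21 and RefSeq, on GRCm38, served for overlaps and promoter sequence, and no coordinates were set against the mm9 values.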

Additional observations from a re-analysis of the deposited data

Results flagged for a closer look

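The log2 change from untreated to LPS libraries differed between the genotypes for 24 members. The test was limma on the change in Lsd1SA/SA cells minus that in wild type, and the difference was negative for 23. Over all tested genes 63.7% were called for the same difference, against 72.7% of the members. Genes of the mevalonate route were Acat2 (-0.75), Mvd (-0.49), Idi1 (-1.77) and Fdps (-1.18). Genes from squalene to cholesterol were Fdft1 (-1.08), Sqle (-1.55), Lss (-0.36), Cyp51 (-1.16) and Hsd17b7 (-0.76). Genes of regulation and sterol transport were Srebf2 (-1.25), Scap (-0.26), Insig1 (-1.34), Srebf1 (-0.80) and Stard4 (-1.52). Genes of fatty acid synthesis were Me1 (-0.89), Acaca (-0.45) and Fasn (-1.11). Genes of desaturation, elongation and activation were Scd1 (-0.78), Scd2 (-1.60), Elovl5 (-0.62), Elovl6 (-0.81), Fads2 (-0.93) and Acsl3 (-1.14). Their limma adjusted p was at most 0.01941, that of Lss. The 1 positive difference was that of Nsdhl (0.32, limma adjusted p = 0.0348). Each of these differences rests on the libraries labelled Lsd1SA/SA with LPS, which came from male cells. The 4 LPS targets checked had a median log2 change of 0.19 there and 8.19 in wild type. LPS, genotype, sex and another culture thus cannot be told apart in these differences. Calls for Lss, Scap and Nsdhl were lost in 2, 4 and 9 of 18 alternatives, with adjusted p from 0.00382 to 0.119, from 0.00260 to 0.117 and from 0.00236 to 0.248. For Lss these were the fits without replicate 2 of Lsd1SA/SA with LPS and without replicate 1 of untreated Lsd1SA/SA. For Scap they were quantile normalization and the fits without replicate 2 of untreated Lsd1SA/SA or of either wild-type group. For Nsdhl they included the fits without replicate 1 of Lsd1SA/SA with LPS, replicate 2 of untreated Lsd1SA/SA, replicate 1 of wild type with LPS or replicate 2 of untreated wild type.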

How the results depend on the processing

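Counts of members called lower kept within 1.5 times of those given in every alternative run, in each comparison. Leaving out 1 library at a time gave 24 to 24 members lower and 0 to 1 higher for LPS in Lsd1SA/SA cells, the 1 being Nsdhl without either untreated wild-type library. It gave 3 to 5 lower and 7 to 8 higher for LPS in wild type, 22 to 24 lower and 0 to 1 higher between the genotypes with LPS, and 22 to 24 below 0 and 0 to 2 above 0 for the difference of the LPS effects. The 1 member higher between the genotypes with LPS became 0 with no filter, with median-of-ratios scaling, with the replicate block, by edgeR and by DESeq2, and 3 after quantile normalization. The 1 difference above 0 became 0 with no filter, with median-of-ratios scaling, by edgeR and by DESeq2. The cause was not tested. Quantile normalization turned Fdft1 and Acly to -0.32 and -0.29 for LPS in wild type, and Acly to 0.12 between the genotypes with LPS. Untreated, 0 members were called in all alternatives, while the genes called over the whole table went from 1 to 0 with no filter, 2 without the Lsd1SA/SA LPS libraries, 18 with a robust trend, 64 by DESeq2 and 1 to 483 when 1 library was left out, the most without replicate 1 of untreated wild type. Replicate numbers share no stated animal or day, and same-numbered deviations correlated at -0.14 to 0.16 between groups. With the replicate block, 24 members were lower and 0 higher for LPS in Lsd1SA/SA cells, and 4 lower and 8 higher in wild type. Depth limits Fads2, Scd1 and Elovl6, at 25 to 205 reads.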
